A study of Arabidopsis thaliana with 10 samples.

Results

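Light-grown Arabidopsis thaliana seedlings carrying a DIG1 transgene were compared with seedlings of a GFP line by RNA-seq of polyA RNA. The comparison used 4 of the 10 libraries of the series, 2 titled GFP and 2 titled DIG1, and covered all 17433 genes of the table for that experiment. The seedlings of both lines were whole, of the Col-0 accession, aged 10 d, kept under long days, and grown from germination on agar medium with sucrose and 500 nM dexamethasone, a steroid drug with which steroid-dependent transgenes are turned on. The other 6 libraries came from dark-grown seedlings aged 3 d. The GFP line, grown on the same dexamethasone, was the control. The labels do not give the promoter that drives either transgene, how many independent transformants each line stands for, or whether the replicates were separate cultures. P-values therefore measure the spread between these libraries, which may be technical. With no untreated seedlings, a difference between the lines that was there before treatment cannot be told apart from an effect of switching on DIG1.

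DIG1 is named in the series as a transcription factor that responds to abscisic acid (ABA), the hormone that plants make under drought and in maturing seeds. In the textbook pathway, ABA binds receptors of the PYR/PYL family, which then block clade A PP2C phosphatases. This frees SnRK2 kinases to activate bZIP factors such as the ABFs, which bind the ACGTG core of the ABA-responsive element in promoters of dehydrin and other protective genes. In a young green seedling genes of photosynthesis are among the most abundant transcripts, and seedlings short of carbon are known to lower these and to raise genes that break down amino acids, lipids and sugars.

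Each value below is an RPKM, reads scaled to gene length and library depth, and values are given for GFP replicates 1 and 2 and then for DIG1 replicates 1 and 2. Changes are DIG1 minus GFP in log2(RPKM + 0.5), given with the standard error from a limma model over all genes. This scale understates changes of genes with low values. A gene is said to have risen or fallen where its limma p, adjusted over all 17433 genes (two-sided, Benjamini-Hochberg), was under 0.05. By that rule 5560 genes (31.9%) rose and 5439 (31.2%) fell, 63.1% in all. At least 2-fold changes were fewer upward, with 1757 genes (10.1%) higher and 3315 (19.0%) lower. Both libraries of one line lay above both of the other in 14717 genes (84.4%). So large a share of all genes is the background against which the count of any list has to be read. Where each library was scaled to the same sum of RPKM, the median change of all genes moved from 0.05 to 0.34, and 8198 genes were higher and 4109 lower. The share of higher genes among all called was 50.55% as deposited and 66.6% on that scaling.

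The depth and quality of the libraries bear on all results. Reads on listed genes, recovered from the steps of the RPKM values, ranged from 12749788 to 19032010 per library. The RPKM values of a library summed to 767707 and 743620 in GFP and to 589742 and 629172 in DIG1. Replicates correlated across genes at a Pearson r of 0.986 (GFP) and 0.985 (DIG1), and libraries of different lines at 0.771 to 0.808. Genes are not independent replicates, so these r values only describe the libraries. Replicates differed by more than sampling noise (chi-square per gene of 11.3 and 10.7), so none was a copy of another. The authors' deposited table called 5500 genes higher and 5418 lower at an FDR under 0.05, and 10490 of these were called here with the same sign and 0 with the opposite one.

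The DIG1 transcript itself was the largest change. The gene (AT3G48510, chromosome 3, 17967354 to 17968590 in TAIR10.1) had 1.42 and 0.935 RPKM in GFP against 1891 and 1775 in DIG1. It was near 0 in both GFP libraries and far above that in both DIG1 libraries, a log2 change of 10.11 ± 0.16 (limma adjusted p = 0.000155). The sample titles print AT3G45810 beside the name DIG1. That locus was not analysed here, and the labels do not say why the titles give it. Of its relatives in the DIG family only AT3G27250 was in the table, and it fell, with 3.98 and 2.24 RPKM in GFP against 0.113 and 0 in DIG1 (−2.66 ± 0.30, limma adjusted p = 0.00149).

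**Figure D1:**
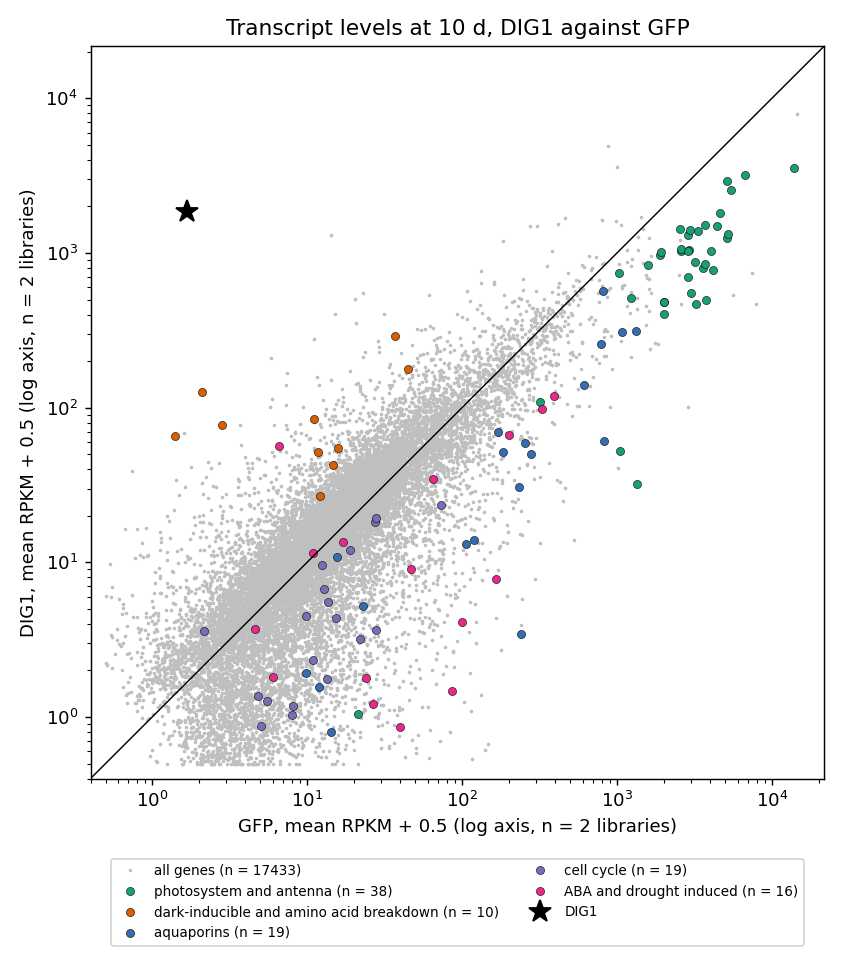
Mean RPKM + 0.5 of every gene in the 2 GFP libraries (x axis) and the 2 DIG1 libraries (y axis), both on log axes, with 5 gene lists in colour and DIG1 as a star. The line marks equal levels. The 38 photosystem and antenna genes lie below the line, most of them at the right, and the 10 dark-inducible and amino acid breakdown genes lie above it.

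Photosynthesis genes were lower in DIG1 throughout. All 38 nuclear photosystem and antenna genes on the list were measured and all 38 fell, with a median log2 change of −1.57 against 0.05 for all genes. That count was 29 without GFP replicate 1 and 33 without GFP replicate 2. Under quantile normalization, which gives all 4 libraries 1 distribution of levels, 21 fell and 1, LHCB4.1, rose (0.39, limma adjusted p = 0.0225), with a median of −0.64. LHCA2, LHCA4, CAB3, LHCB1.5, LHCB4.2, PSAG, PSAL, PSBR and PETC were then at 0 or above as well. Together they made up 17.2% and 15.8% of the summed RPKM in the GFP libraries and 6.78% and 6.84% in the DIG1 libraries. In whole seedlings, fewer green cells and less of these transcripts per cell cannot be told apart.

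The fall differed in size among members. LHCB2.3, an antenna protein of photosystem II, stood at 1529.8 and 1143 RPKM in GFP against 43.4 and 19.8 in DIG1 (−5.47 ± 0.38, limma adjusted p = 0.000444). Both DIG1 libraries lay far below both GFP libraries, by more than for any other member. LHCB4.3, a minor antenna protein, came next with 23 and 18.5 RPKM in GFP against 0.622 and 0.478 in DIG1 (−4.33 ± 0.18). LHCB1.4 followed with 1265 and 823 RPKM in GFP against 61.3 and 42.5 in DIG1 (−4.31 ± 0.27), again without overlap. The other antenna genes fell less. LHCB5 had 3988 and 3467 RPKM in GFP against 456 and 531 in DIG1 (−2.92) and LHCB3 had 4270.1 and 4060.2 RPKM in GFP against 769 and 787 in DIG1 (−2.42). Among photosystem subunits, PSBP-1 of the oxygen-evolving complex had 3828 and 3319.6 RPKM in GFP against 756 and 834 in DIG1 (−2.17). The smallest fall on the list was that of the cytochrome b6f subunit gene PETC, at 1075 and 993 RPKM in GFP against 711 and 782 in DIG1, a log2 change of −0.47. Its call was lost without GFP replicate 1 (limma adjusted p = 0.175), GFP replicate 2 (0.113) or DIG1 replicate 1 (0.103). CAB1, LHCB1.1 and CAB3 are near-identical copies of each other, so the split of reads among them is uncertain. CAB1, the most abundant of them, stood at 14842 and 12787 RPKM in GFP against 3466 and 3649.6 in DIG1, and its adjusted p rose to 0.0507 without GFP replicate 1.

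Genes of carbon fixation and photorespiration followed, though not all of them. Of 25 measured members 0 rose and 20 fell, with a median of −1.18. Under quantile normalization 4 rose and 16 fell, and on an equal sum of RPKM 2 rose. RCA, the Rubisco activase, stood at 7509 and 7443 RPKM in GFP against 561 and 919 in DIG1 (−3.38 ± 0.28, limma adjusted p = 0.000667). FBA2, a plastid aldolase, had 4357 and 3952 RPKM in GFP against 658 and 871 in DIG1 (−2.45 ± 0.21). Both genes were several times lower in each DIG1 library than in either GFP library. SBPASE, a phosphatase of the Calvin cycle, had 719 and 685 RPKM in GFP against 154 and 163 in DIG1 (−2.14). The Rubisco small subunit genes RBCS1B, RBCS2B and RBCS3B lie next to each other and are near-identical, so their separate values are uncertain. RBCS3B had 8703 and 7187 RPKM in GFP against 373 and 566 in DIG1 (−4.10). RBCS1A, the most abundant small subunit gene, had 15289 and 13783 RPKM in GFP against 6802 and 9002 in DIG1 and did not pass the test (limma adjusted p = 0.0697). GAPA and the epimerase gene RPE also did not pass, at 551 and 485 RPKM in GFP against 593 and 629 in DIG1 for the latter.

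**Figure D2:**
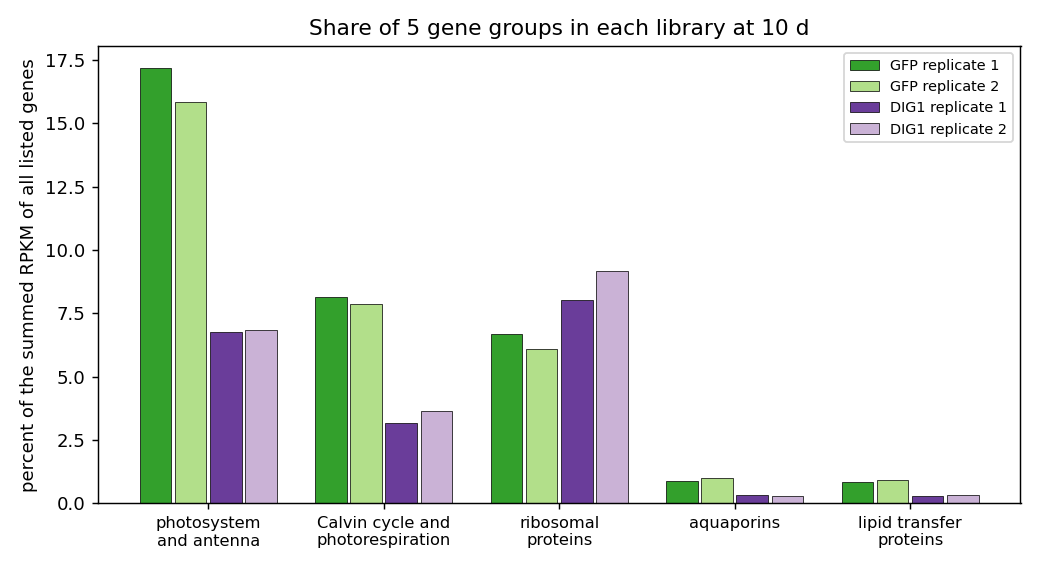
Percent of the summed RPKM of all listed genes taken by 5 gene groups (x axis) in each of the 4 libraries (bars, no error bars since each bar is 1 library). Photosystem and antenna genes took 17.2% and 15.8% in GFP and 6.78% and 6.84% in DIG1. Ribosomal protein genes took a larger share in both DIG1 libraries, whose RPKM sums were lower, than in either GFP library. Their own RPKM summed to 51365 and 45405 in GFP and to 47312 and 57734 in DIG1, so those sums overlapped between lines.

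Chlorophyll synthesis was split between enzymes and regulators. Of 17 measured genes 6 rose and 9 fell. PORB, a protochlorophyllide reductase, had 65.6 and 34.7 RPKM in GFP against 14.3 and 10.4 in DIG1 (−1.92 ± 0.33). GUN5, a subunit of magnesium chelatase, had 951 and 906 RPKM in GFP against 163 and 189 in DIG1 (−2.40 ± 0.12), and HEMA1, the first committed enzyme of the path, had 331 and 228 RPKM in GFP against 53.2 and 73 in DIG1 (−2.13). These enzymes were lower in both DIG1 libraries. Regulators known to promote chloroplast development went the other way, except GLK1. CGA1 had 6.66 and 13.4 RPKM in GFP against 36 and 36.4 in DIG1 (1.88), HY5 had 17.5 and 16.5 RPKM in GFP against 37.7 and 35.8 in DIG1 (1.09) and GLK2 had 124 and 131 RPKM in GFP against 215 and 216 in DIG1 (0.75). GLK1, the close relative of GLK2, fell, with 135 and 117 RPKM in GFP against 53.4 and 48.9 in DIG1 (−1.29). The 2 GLK genes thus had opposite signs with no overlap between lines in either, as in 84.4% of all genes.

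No transcript of the plastid genome fell. Of 35 plastid-encoded genes 23 rose and 0 fell, with a median of 1.00. The count that rose was 15 without GFP replicate 1, 13 without GFP replicate 2 and 15 without DIG1 replicate 1. ATCG00040 had 1.28 and 1.02 RPKM in GFP against 7.74 and 5.11 in DIG1 (2.05). Plastid transcripts mostly lack the polyA tails that the library kit selects, so these values cover a small part of them.

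Genes known to rise in darkness and in the breakdown of amino acids were higher in DIG1, although the seedlings grew in light and on sucrose. All 10 members of that list were measured and all rose at least 2-fold, with a median of 2.53. The count was also 10 in each of the 4 fits that left out 1 library. DIN2, a beta-glucosidase, had 1.05 and 2.13 RPKM in GFP against 128 and 123 in DIG1 (5.96 ± 0.26, limma adjusted p = 0.000225). BCAT2, which starts the breakdown of branched-chain amino acids, had 0.529 and 1.26 RPKM in GFP against 69.8 and 60.5 in DIG1 (5.60 ± 0.27). ASN1, the asparagine synthetase that stores nitrogen when carbon is short, had 2.45 and 2.19 RPKM in GFP against 81.5 and 71.6 in DIG1 (4.77 ± 0.12). All of these were at a few RPKM or less in both GFP libraries. MCCA, an enzyme of leucine breakdown, had 10.6 and 10.5 RPKM in GFP against 90.3 and 77 in DIG1 (2.93). The glutamate dehydrogenase genes GDH1 and GDH2, which release ammonium from glutamate, had log2 changes of 1.79 and 1.99. ETFQO, which passes electrons from this breakdown to the respiratory chain, had the smallest rise, with 11.4 and 11.9 RPKM in GFP against 26.7 and 25.6 in DIG1 (1.14).

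ICL, isocitrate lyase of the glyoxylate cycle, had the largest rise after DIG1. The gene (AT3G21720, chromosome 3, 7652487 to 7656053 in TAIR10.1) had 4.35 and 23.4 RPKM in GFP against 1329.9 and 1302 in DIG1 (6.93 ± 0.72, limma adjusted p = 0.00114). The GFP replicates differed several times over, and both DIG1 libraries lay far above them. A list of the glyoxylate cycle and fatty acid breakdown was then drawn up after these values were seen, so its count is a description only. Of its 18 genes, all measured, 14 rose and 1 fell. MLS, malate synthase, the other enzyme particular to the cycle, had 2.74 and 3.41 RPKM in GFP against 16.6 and 12.7 in DIG1 (2.08). PCK1, which makes phosphoenolpyruvate for sugar synthesis, had 74.3 and 68.9 RPKM in GFP against 299 and 275 in DIG1 (1.99). The lipase gene SDP1 and the acyl-CoA oxidase gene ACX4 also rose, by 1.19 and 1.76. PMDH2, a peroxisomal malate dehydrogenase, fell, with 699.7 and 707 RPKM in GFP against 348 and 346 in DIG1 (−1.02).

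Senescence genes did not move as one. Of 12 measured members 8 rose and 3 fell, with a median of 0.55. The count that rose was 5 without GFP replicate 1, 4 without DIG1 replicate 1 and 3 without DIG1 replicate 2. SEN1, induced by darkness and senescence, had 4.6 and 9.02 RPKM in GFP against 148 and 132 in DIG1 (4.33 ± 0.30), and NYC1, a chlorophyll b reductase, had 44.9 and 33.7 RPKM in GFP against 77.5 and 78.7 in DIG1 (1.00). SAG29, a sugar transporter of the SWEET family, had 93.8 and 132 RPKM in GFP against 1.03 and 0.171 in DIG1 (−6.79 ± 0.41). The transcription factor gene NAP, a promoter of leaf senescence, fell as well (−1.32). SAG29 was thus among the largest falls of the table and SEN1 among the largest rises.

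Starch and sugar genes were mostly lower. Of 13 measured genes 2 rose and 9 fell, and 1 rose without DIG1 replicate 1 or 2. APL3, a subunit of the first enzyme of starch synthesis, had 23.3 and 26 RPKM in GFP against 2.02 and 1.42 in DIG1 (−3.51), and the starch synthase gene GBSS1 had 121 and 134 RPKM in GFP against 25.7 and 23.4 in DIG1 (−2.36). SEX1, which primes starch for breakdown, had 26.1 and 27.3 RPKM in GFP against 6.09 and 5.32 in DIG1 (−2.13). The sugar exporter gene SWEET13 fell by 4.14 on the log2 scale. STP1, a sugar importer at the cell surface, rose, with 60.1 and 68.4 RPKM in GFP against 336 and 316 in DIG1 (2.34). FUM2, a cytosolic fumarase that makes the storage acid fumarate in leaves, had 64.8 and 59.2 RPKM in GFP against 0.294 and 0.353 in DIG1 (−6.25 ± 0.13). In each of these genes the libraries of the lines did not overlap, as in 84.4% of all genes.

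The ABA pathway was lower at its output, while its signalling genes went in both directions. Of 16 measured ABA- and drought-induced genes 1 rose and 11 fell, with a median of −1.97. ERD10, a dehydrin that protects cells from drying, had 86.6 and 85.2 RPKM in GFP against 1.45 and 0.475 in DIG1 (−5.97 ± 0.33, limma adjusted p = 0.000293), and its relative COR47 had 142 and 187 RPKM in GFP against 8.12 and 6.49 in DIG1 (−4.40 ± 0.17). RAB18, a dehydrin used as a marker of ABA response, had 34.4 and 57.6 RPKM in GFP against 9.61 and 7.44 in DIG1 (−2.33). RD20, a lipid-body protein of drought, had 25.5 and 27 RPKM in GFP against 1.25 and 0.174 in DIG1 (−4.62). KIN1 and COR6.6 encode similar small cold- and ABA-induced proteins, so reads may be split between them. KIN1 had 33.6 and 44.8 RPKM in GFP against 0.731 and 0 in DIG1 (−5.65) and COR6.6 had 87.6 and 112 RPKM in GFP against 6.41 and 0.812 in DIG1 (−5.05). In all of these the DIG1 libraries lay below both GFP libraries.

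Some widely used ABA markers were not called. RD29A had 14 and 19.3 RPKM in GFP against 24 and 1.94 in DIG1 (limma adjusted p = 0.384), RD29B had 2.61 and 5.66 RPKM in GFP against 4.7 and 1.75 in DIG1 (0.568) and XERO2 had 9.53 and 11.4 RPKM in GFP against 14.4 and 7.45 in DIG1 (0.994). RD29A was thus above both GFP libraries in DIG1 replicate 1 and below both in DIG1 replicate 2. The linker histone gene HIS1-3, which drought induces, was the single list member that rose, with 5.59 and 6.48 RPKM in GFP against 58.7 and 53.3 in DIG1 (3.11 ± 0.12, limma adjusted p = 0.000221).

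Promoters of the ABA-induced genes are shown because the ACGTG core lies in most of them. The windows are the 250 bases upstream of the annotated gene start in TAIR10.1, read from the RefSeq genome of that build, 5′ to 3′ on the gene's strand. Capitals mark ACGTG on either strand, so CACGT marks the core read on the other strand, and CACGTG holds it on both. KIN1 (chr5:5209467-5209716, plus strand) and COR6.6 (chr5:5211469-5211718, plus strand) are neighbours with 1 core each, RAB18 (chr5:26519448-26519697, minus strand) has 3. LHCB2.3 (chr3:10255656-10255905, plus strand), with 4, fell, and ASN1 (chr3:17441432-17441681, minus strand), with 2, rose.
KIN1: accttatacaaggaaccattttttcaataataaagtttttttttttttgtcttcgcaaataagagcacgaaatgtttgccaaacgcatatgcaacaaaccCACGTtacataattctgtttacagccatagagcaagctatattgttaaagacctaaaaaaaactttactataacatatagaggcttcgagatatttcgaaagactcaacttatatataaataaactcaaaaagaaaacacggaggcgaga
COR6.6: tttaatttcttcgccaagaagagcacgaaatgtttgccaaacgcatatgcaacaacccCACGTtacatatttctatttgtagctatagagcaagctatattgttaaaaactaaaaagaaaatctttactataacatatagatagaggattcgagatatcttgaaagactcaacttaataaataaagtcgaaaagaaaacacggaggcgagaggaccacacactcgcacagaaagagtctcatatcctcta
RAB18: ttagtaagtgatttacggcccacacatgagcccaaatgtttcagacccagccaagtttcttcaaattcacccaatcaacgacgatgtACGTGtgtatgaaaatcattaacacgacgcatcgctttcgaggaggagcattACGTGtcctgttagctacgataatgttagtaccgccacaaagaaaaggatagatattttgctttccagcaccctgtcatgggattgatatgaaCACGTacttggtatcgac
LHCB2.3: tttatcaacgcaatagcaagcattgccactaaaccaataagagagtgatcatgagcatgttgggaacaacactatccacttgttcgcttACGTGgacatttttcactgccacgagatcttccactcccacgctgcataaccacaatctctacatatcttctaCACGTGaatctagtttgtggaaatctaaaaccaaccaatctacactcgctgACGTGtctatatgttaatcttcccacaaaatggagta
ASN1: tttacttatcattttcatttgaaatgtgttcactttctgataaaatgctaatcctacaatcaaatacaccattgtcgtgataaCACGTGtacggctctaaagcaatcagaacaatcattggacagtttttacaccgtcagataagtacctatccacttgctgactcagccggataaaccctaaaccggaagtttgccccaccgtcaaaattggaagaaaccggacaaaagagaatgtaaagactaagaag

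Motifs were counted in longer windows than those printed, which also took in a short stretch after the gene start. The core was found in 12 of 16 such windows of ABA- and drought-induced genes (75.0%). It was in 16 of 38 of photosystem and antenna genes (42.1%) and in 5 of 10 of the dark-inducible genes. Over all 17385 genes with a window the share was 27.8%, over genes at least 2-fold higher 29.3% and over those at least 2-fold lower 32.8%. The core was thus present in promoters of genes that fell and of genes that rose. Other motifs searched on both strands were the G-box CACGTG, which overlaps the core (8.96% of all windows, 26.3% of photosystem and antenna genes, 31.2% of ABA- and drought-induced genes), and the evening element AAATATCT (5.79% of all windows, 7.25% of those at least 2-fold higher). GCCGCC, the core bound by ethylene response factors, was in 2.66% of all windows, in 5.06% of genes at least 2-fold higher and in 1.54% of genes at least 2-fold lower. GCCGAC, the core bound by cold and drought factors of the DREB family, was in 4 of 16 windows of ABA- and drought-induced genes (25.0%) and in 3.73% of all. TTGAC, the core bound by WRKY factors, was in 50.4% of all windows and in 52.7% and 50.6% of those at least 2-fold higher and lower. A match describes letters in these windows and shows no binding.

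Among the ABA receptors 4 rose and 4 fell of 9 measured, beside 31.9% and 31.2% of all genes. PYL6 had 1.97 and 7.6 RPKM in GFP against 32.3 and 40.1 in DIG1 (3.03 ± 0.55) and PYL4 had 41.2 and 73.5 RPKM in GFP against 161 and 205 in DIG1 (1.71 ± 0.29). PYL2 had 4.41 and 3.96 RPKM in GFP against 1.52 and 0.875 in DIG1 (−1.49 ± 0.24) and PYL7 had 6.79 and 8.36 RPKM in GFP against 2.41 and 3.49 in DIG1 (−1.24 ± 0.21). The lines did not overlap in any of these receptors, as in 84.4% of all genes. PYL1 did not pass the test, at 29.3 and 30.6 RPKM in GFP against 26.8 and 31.5 in DIG1 (limma adjusted p = 0.765).

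The clade A PP2C phosphatases, brakes of the pathway whose genes ABA itself induces, included PP2CA with 39.6 and 42.4 RPKM in GFP against 7.47 and 2.69 in DIG1 (−3.04 ± 0.42) and HAI1 with 7.69 and 8.59 RPKM in GFP against 1.02 and 0.273 in DIG1 (−2.99 ± 0.34). HAI2 fell too (−1.97). HAB1 went the other way, with 26.4 and 38.2 RPKM in GFP against 80.8 and 63.5 in DIG1 (1.16). ABI1 and ABI2 did not pass the test, at 21.2 and 27.3 RPKM in GFP against 20.1 and 11.9 in DIG1 for ABI1 (limma adjusted p = 0.094). In all, 1 rose and 3 fell of 7, and without DIG1 replicate 1 the number that fell was 5.

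Of 9 SnRK2 kinase genes 4 rose and 3 fell, beside 31.9% and 31.2% of all genes. SNRK2.2 rose, with 28.5 and 28.2 RPKM in GFP against 79 and 71.1 in DIG1 (1.39 ± 0.09). SNRK2.3 rose too, with 13.4 and 12.9 RPKM in GFP against 30.1 and 29.5 in DIG1 (1.15 ± 0.09). SNRK2.7 fell, with 5.2 and 6.16 RPKM in GFP against 1.27 and 0.688 in DIG1 (−2.09). SNRK2.5 and OST1 fell as well. The call of OST1 was lost on an equal sum of RPKM (−0.38, limma adjusted p = 0.0993). It was also lost without GFP replicate 2 (−0.53) or DIG1 replicate 2 (−0.59). That of SNRK2.5 was lost under quantile normalization (−0.65) and without GFP replicate 1 (−1.31) or GFP replicate 2 (−1.34). The number that rose was 2 in each fit that left out 1 library, and the number that fell was 1 without GFP replicate 2.

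Among ABA transcription factors 5 rose and 7 fell of 17 measured (3 rose without GFP replicate 1 and 4 fell without GFP replicate 2). ABF3, a bZIP factor that acts downstream of the SnRK2 kinases, had 57 and 66.4 RPKM in GFP against 3.79 and 3.24 in DIG1 (−3.95 ± 0.13, limma adjusted p = 0.000181). ABF2 had 14.2 and 15.4 RPKM in GFP against 4.28 and 2.79 in DIG1 (−1.95) and ABF1 fell as well (−1.21). Each was lower in both DIG1 libraries than in either GFP library. NAC032, a stress-induced NAC factor, had 7.92 and 13.6 RPKM in GFP against 47.8 and 38.1 in DIG1 (1.98). AFP2 and AFP4, of a family that binds and restrains ABI5, rose by 1.23 and 2.01. AFP1 of the same family fell, and its call was lost without the variance trend (−1.82, limma adjusted p = 0.0574). ABI5 itself rose, but its call was lost without DIG1 replicate 1 (0.57), GFP replicate 1 (0.82) or GFP replicate 2 (0.83).

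Of 11 genes of ABA metabolism 0 rose and 6 fell, or 2 and 5 on an equal sum of RPKM. NCED3, the drought-induced rate-limiting enzyme of ABA synthesis, had 2.51 and 3.07 RPKM in GFP against 0.434 and 0.0241 in DIG1 (−2.23). ABA2, a later enzyme of the path, had 22.6 and 18.4 RPKM in GFP against 6.51 and 4.24 in DIG1 (−1.86). BGLU18, which frees ABA from its glucose ester, had 77.2 and 43.4 RPKM in GFP against 4.11 and 2.53 in DIG1 (−3.96). CYP707A3, an ABA-degrading hydroxylase, also fell (−1.24). Genes of synthesis and of breakdown were thus both among those lower.

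**Figure D3:**
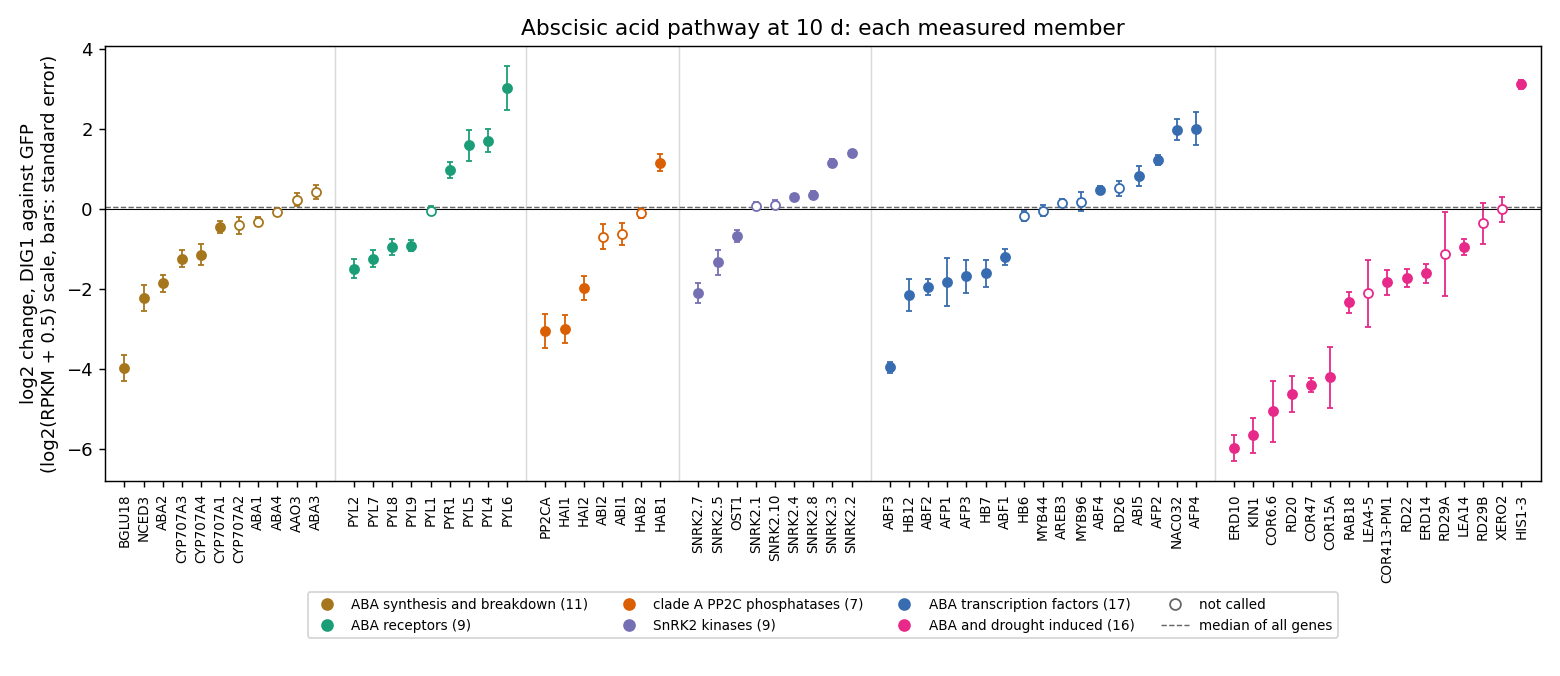
Log2 change of DIG1 against GFP (y axis, bars are standard errors, 2 libraries per line) for each measured gene of the ABA pathway (x axis), grouped by role. Filled points passed the test and open points did not. The induced genes at the right reach −5.97 (ERD10), while receptors, kinases and transcription factors spread to both sides of 0.

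Water channel genes fell nearly as a whole. Aquaporins move water across the plasma membrane (PIP) and the vacuole membrane (TIP). Of 19 measured 0 rose and 18 fell, 17 of them at least 2-fold, with a median of −2.13. TIP2;2 had 211 and 269 RPKM in GFP against 2.6 and 3.3 in DIG1 (−6.12 ± 0.17, limma adjusted p = 0.000155). TIP1;1 had 814 and 841 RPKM in GFP against 68.1 and 52.6 in DIG1 (−3.78 ± 0.15), and PIP2;1 had 1239.7 and 1429 RPKM in GFP against 332 and 293 in DIG1 (−2.09 ± 0.14). These are abundant transcripts, and the lines did not overlap in any of the 19, as in 84.4% of all genes. PIP2;5 was the member that did not pass, at 16.5 and 13.8 RPKM in GFP against 12.3 and 8.39 in DIG1 (limma adjusted p = 0.0659). Osmolyte genes were divided, and of 7 measured 4 rose and 3 fell, beside 31.9% and 31.2% of all genes. GolS2, a galactinol synthase induced by drought, fell (−3.06), while GolS1 had 33.8 and 32.4 RPKM in GFP against 94.5 and 97.8 in DIG1 (1.52). P5CS2 of proline synthesis had 63.4 and 70.6 RPKM in GFP against 252 and 196 in DIG1 (1.72). P5CS1, its relative, went the other way with the largest fall on the list (−3.58). Its change was −3.67 without GFP replicate 1 and −3.48 without GFP replicate 2. Although the size of the fall was similar, P5CS1 did not pass the test in either of these fits.

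Most markers of the root endodermis fell as well, while the 1 measured gene of the root meristem and cap list, UPB1, rose (1.28). Of 11 measured endodermis and suberin genes 0 rose and 9 fell, with a median of −2.42. Their RPKM summed to 102 and 129 in GFP and to 47.2 and 43.1 in DIG1. CASP1, which builds the Casparian strip, had 13.6 and 21.8 RPKM in GFP against 2.11 and 1.17 in DIG1 (−3.08), and CYP86A1, an enzyme of root suberin, had 7.01 and 5.33 RPKM in GFP against 0 and 0.344 in DIG1 (−3.35). SCR, which specifies endodermis, did not pass the test, at 25 and 27.9 RPKM in GFP against 25.3 and 27.2 in DIG1. No marker on this list was at 0 in both DIG1 libraries. The 6 measured root hair genes summed to 40.8 and 46.7 in GFP and to 18.6 and 0.906 in DIG1, and 4 fell (1 without either GFP library). PRP3 of the root hair wall was at 17.3 and 18.9 RPKM in GFP against 9.24 and 0.095 in DIG1, so DIG1 replicate 1 held far more of it than DIG1 replicate 2. The part of root RNA content in the falls of aquaporin, nutrient and wall genes was not tested.

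Of 6 measured nitrate genes 2 rose and 3 fell, and of 7 phosphate genes 0 rose and 4 fell. NRT1.5, which loads nitrate into the xylem, had 93.1 and 92.3 RPKM in GFP against 9.11 and 1.85 in DIG1 (−4.29). PHT1;1, a phosphate importer, had 35.8 and 42.1 RPKM in GFP against 0.863 and 0.469 in DIG1 (−5.10 ± 0.21), and PHO1, which loads phosphate into the xylem, had 36.7 and 36.9 RPKM in GFP against 3.18 and 2.42 in DIG1 (−3.51). Both DIG1 libraries were lower in these 3. The nitrate reductase genes, which act in roots and leaves, rose. NIA1 had 41.4 and 80.4 RPKM in GFP against 510.4 and 555 in DIG1 (3.19 ± 0.31, limma adjusted p = 0.000937), and NIA2 had 304 and 454 RPKM in GFP against 1014 and 1047 in DIG1 (1.47 ± 0.21). NIR1, the next enzyme, did not pass the test, at 171 and 134 RPKM in GFP against 150.0 and 165 in DIG1.

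In the iron list 1 rose and 7 fell of 12. Without DIG1 replicate 2 4 fell, and without GFP replicate 2 or either DIG1 library 0 rose. FRO2, the ferric reductase of the root surface, had 0.839 and 29.8 RPKM in GFP against 0.167 and 0.0925 in DIG1 and was not called (limma adjusted p = 0.0893). IRT1, the iron importer, had 3.7 and 62.6 RPKM in GFP against 0.181 and 0.0752 in DIG1. GFP replicate 2 thus held many times the IRT1 and FRO2 transcripts of GFP replicate 1. FIT, the root factor that switches on iron uptake, had 4.3 and 9.23 RPKM in GFP against 0.74 and 0.332 in DIG1 (−2.75), and NAS4, which makes an iron chelator, had 14.2 and 29 RPKM in GFP against 0.409 and 0.195 in DIG1 (−4.71).

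**Figure D4:**
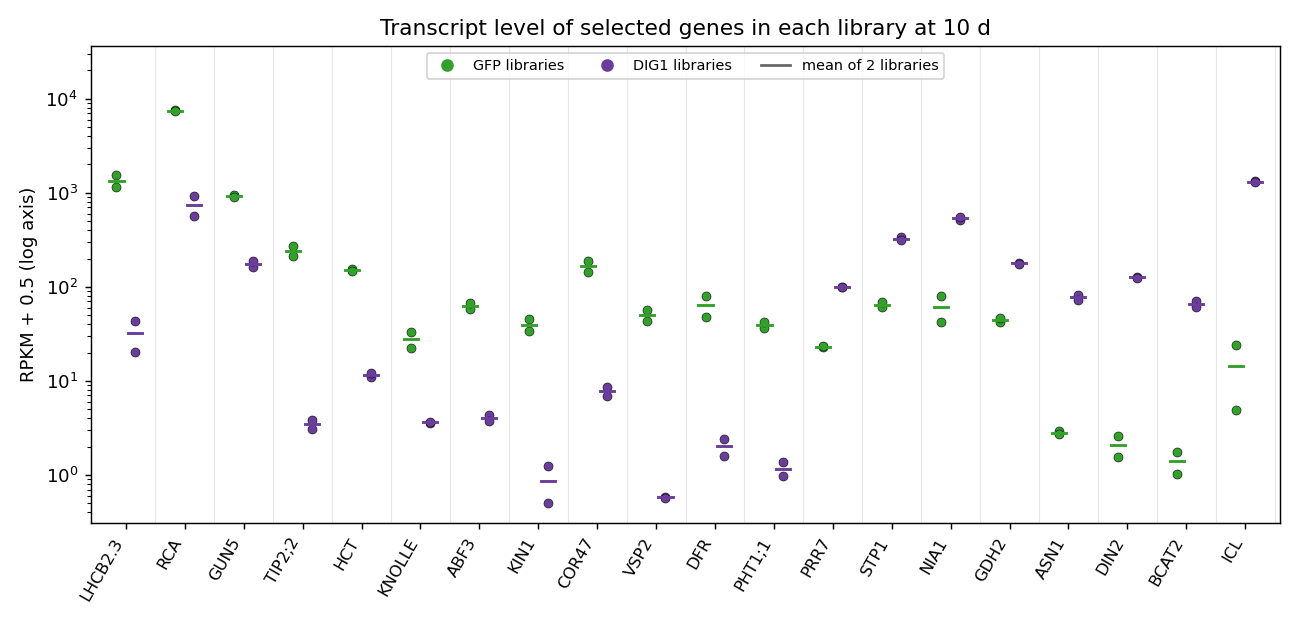
RPKM + 0.5 (y axis, log) of 20 genes (x axis) in each of the 2 GFP and 2 DIG1 libraries (points), with the mean of each line as a bar. The 12 genes at the left are lower and the 8 at the right higher in both DIG1 libraries than in either GFP library.

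Cell division genes were lower in DIG1. Of 19 measured genes 0 rose and 17 fell, with a median of −1.83, and 1 rose in the fit without GFP replicate 1. KNOLLE, which acts in forming the plate between daughter cells, had 32.4 and 21.9 RPKM in GFP against 3.09 and 3.18 in DIG1 (−2.90 ± 0.20, limma adjusted p = 0.000457). CYCB1;2, a mitotic cyclin, had 14.1 and 11.6 RPKM in GFP against 1.43 and 1.06 in DIG1 (−2.94), and CDKB2;1, a mitotic kinase, had 25.3 and 17.5 RPKM in GFP against 2.1 and 3.33 in DIG1 (−2.77). These 3 were several times lower in both DIG1 libraries. PCNA1 and MCM2, which act in DNA replication, also fell (−1.83 and −1.15). Of 9 genes of the shoot meristem and young leaf 1 rose and 6 fell. CLV1, a receptor kinase of the meristem, had 14.6 and 15.3 RPKM in GFP against 5.46 and 4.56 in DIG1 (−1.49). GRF1, a growth-regulating factor gene of young leaves, had 7.61 and 5.82 RPKM in GFP against 16.5 and 15.8 in DIG1 (1.22). GRF5 of the same family fell, and its call was lost under quantile normalization (−0.35, limma adjusted p = 0.154). STM, which keeps the meristem, did not pass, at 3.96 and 1.54 RPKM in GFP against 0.982 and 1.31 in DIG1.

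Cell wall genes fell, most of all those of woody walls. Of 14 measured secondary wall and lignin genes 0 rose and 13 fell, with a median of −3.21. This was the lowest among the pathway and marker lists with 4 or more measured genes. HCT, an enzyme of lignin monomer synthesis, had 155 and 148 RPKM in GFP against 10.5 and 11.7 in DIG1 (−3.71 ± 0.10, limma adjusted p = 0.000155). LAC17, a laccase that joins the monomers, had 12.9 and 17.6 RPKM in GFP against 0.229 and 0.109 in DIG1 (−4.55 ± 0.22). CESA4, a cellulose synthase of secondary walls, had 8.11 and 8.78 RPKM in GFP against 0.476 and 0.264 in DIG1 (−3.37), and XCP2, a protease of xylem vessels, had 48.1 and 51.3 RPKM in GFP against 3.09 and 0.558 in DIG1 (−4.69). None of these overlapped between lines, and 84.4% of all genes did not either. Of 18 primary wall genes 2 rose and 13 fell, and 1 rose without GFP replicate 2. CESA1, a cellulose synthase of growing walls, had 136 and 142 RPKM in GFP against 48.1 and 43.5 in DIG1 (−1.59), less of a fall than CESA4. EXPA5, an expansin, fell by 4.12 on the log2 scale and XTH9, a xyloglucan enzyme, also by 4.12. XTH24 rose, with 39.9 and 89.1 RPKM in GFP against 178 and 237 in DIG1 (1.77).

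The groups that follow were picked by words in the annotated product after the values were seen, and their counts are descriptions. Of 43 genes annotated as peroxidases of 1 superfamily, whose product text also covers the alpha-dioxygenase gene DOX1, 37 fell, with a median of −2.64. Of 51 lipid transfer proteins 46 fell (−3.41), and of 37 arabinogalactan proteins 32 fell (−2.55). All 8 MLP-like proteins fell (−3.83). The largest fall in the table was that of a lipid transfer protein gene with no symbol, AT3G53980, at 133 and 146 RPKM in GFP against 0.226 and 0 in DIG1 (−7.86 ± 0.21, limma adjusted p = 0.000155). MLP328 had 164 and 66 RPKM in GFP against 0 and 0.0706 in DIG1 (−7.61 ± 0.43). The peroxidase gene AT5G51890 had 36.6 and 41.1 RPKM in GFP against 1.44 and 0.691 in DIG1 (−4.69 ± 0.25). These genes were near 0 in DIG1 and well above it in GFP.

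Cuticle genes were lower in part. In the list of wax, cutin and lipid transfer genes 7 of 10 fell and 0 rose. CER1, an enzyme of alkane synthesis, had 43.9 and 45.5 RPKM in GFP against 1.48 and 0.0932 in DIG1 (−5.38 ± 0.55), while CER3, its partner, did not pass the test, at 37.3 and 55.4 RPKM in GFP against 39.1 and 48.7 in DIG1. CDEF1, a cutin-degrading esterase, had 61.1 and 42.1 RPKM in GFP against 0.529 and 0 in DIG1 (−6.16 ± 0.38). LTP3 and LTP4 are near-identical neighbours and uncertain one by one, with 61.4 and 88.8 RPKM in GFP against 2.65 and 0.164 in DIG1 for LTP3 (−5.68).

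Genes of defence compounds and of the jasmonate pathway were mostly lower. Of 16 measured flavonoid genes 1 rose and 14 fell, with a median of −2.55. DFR, an enzyme of anthocyanin synthesis, had 78.7 and 47.5 RPKM in GFP against 1.92 and 1.11 in DIG1 (−4.97 ± 0.31, limma adjusted p = 0.000382), and PAP1, the MYB factor that switches anthocyanin synthesis on, had 11 and 17.8 RPKM in GFP against 0.732 and 0.305 in DIG1 (−3.86). MYBL2, a repressor of the same path, was the member that rose, with 29.1 and 31.7 RPKM in GFP against 78 and 88.5 in DIG1 (1.44). Activator and repressor thus moved in opposite directions. Of 18 glucosinolate genes 1 rose and 16 fell, and 0 rose without GFP replicate 2 or either DIG1 library. MYB34, a regulator of the indole branch, had 49.1 and 47.2 RPKM in GFP against 4.98 and 2.59 in DIG1 (−3.56), and CYP83B1 of the same branch had 145 and 171 RPKM in GFP against 17.1 and 20.6 in DIG1 (−3.04). MYB28, of the aliphatic branch, fell less (−1.78). CYP81F4, which modifies indole glucosinolates, had 290.1 and 186 RPKM in GFP against 4.35 and 2.46 in DIG1 (−5.94 ± 0.31).

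Of 18 jasmonate genes 2 rose and 11 fell. VSP2, a storage protein and marker of jasmonate response, had 56 and 43.2 RPKM in GFP against 0.0887 and 0.0739 in DIG1 (−6.42 ± 0.17, limma adjusted p = 0.000155). LOX2, the lipoxygenase that starts synthesis in the plastid, had 98.7 and 75.1 RPKM in GFP against 3.35 and 1.02 in DIG1 (−5.16 ± 0.44), and AOS, the next enzyme, had 58.1 and 53.7 RPKM in GFP against 9.32 and 4.39 in DIG1 (−3.02). The lines did not overlap in any of these, as in 84.4% of all genes. The JAZ repressor genes were divided, with JAZ1 at 4.97 and 6.13 RPKM in GFP against 0.745 and 0.62 in DIG1 (−2.35) and JAZ9 at 35.8 and 38.8 RPKM in GFP against 63.7 and 63.2 in DIG1 (0.76). MYC2, the main factor that JAZ proteins hold back, did not pass the test, at 13.6 and 12.9 RPKM in GFP against 16.8 and 13.1 in DIG1.

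Among salicylic acid and defence genes 4 rose and 4 fell of 10. CBP60G, a factor that switches on salicylic acid synthesis, had 0.31 and 0.28 RPKM in GFP against 17.3 and 14.4 in DIG1 (4.35 ± 0.17, limma adjusted p = 0.000221), whereas ICS1, the synthesis enzyme, was not called, at 8.46 and 7.26 RPKM in GFP against 7.09 and 14.5 in DIG1. EDS1, which acts upstream in immune signalling, had 9.42 and 10.3 RPKM in GFP against 0.938 and 0.781 in DIG1 (−2.93 ± 0.16), and EDS5, the salicylic acid exporter of the plastid, had 4.48 and 3.74 RPKM in GFP against 0.593 and 0.439 in DIG1 (−2.18). WRKY33, a defence factor, had 5.05 and 4.75 RPKM in GFP against 21.8 and 17 in DIG1 (1.87). Of 7 measured cold and touch genes 5 rose and 1 fell, with a median of 2.46. TCH3, a calmodulin-like protein induced by touch, had 3.55 and 9.97 RPKM in GFP against 62.4 and 91.8 in DIG1 (3.55 ± 0.47). ZAT10, a zinc finger factor of stress, had 2.26 and 4.04 RPKM in GFP against 32.6 and 33.6 in DIG1 (3.25 ± 0.25). Both were higher in each DIG1 library than in either GFP library.

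Chaperone genes of heat differed by member. Of 10 measured 5 rose and 2 fell, and 3 rose without GFP replicate 1 or DIG1 replicate 2. HSP23.6, a mitochondrial small heat shock protein, had 0.0936 and 0.246 RPKM in GFP against 17.5 and 14.4 in DIG1 (4.62 ± 0.20, limma adjusted p = 0.000225), while HSP18.2, a cytosolic one, had 7.09 and 4.19 RPKM in GFP against 1.91 and 1.27 in DIG1 (−1.53). HSP90.1 had 33.4 and 63.9 RPKM in GFP against 116 and 137 in DIG1 (1.44). Of 9 genes of protein folding in the endoplasmic reticulum 2 fell and 0 rose. That count was 7 without DIG1 replicate 2 and 1 without GFP replicate 1 or GFP replicate 2.

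Light and clock genes changed member by member. PHYA, the far-red photoreceptor, had 28 and 25.7 RPKM in GFP against 69.6 and 59.8 in DIG1 (1.25 ± 0.11), while PHYB did not pass the test, at 30.1 and 28.4 RPKM in GFP against 32.5 and 29.7 in DIG1. PIF7, a growth-promoting factor that phytochrome controls, had 26.4 and 24.5 RPKM in GFP against 1.05 and 2.46 in DIG1 (−3.60 ± 0.32), and HFR1, an atypical partner of the PIFs, had 6.59 and 8.8 RPKM in GFP against 0.0534 and 0.445 in DIG1 (−3.49 ± 0.31). PIF4 did not pass, at 69.9 and 62.1 RPKM in GFP against 69.7 and 67.2 in DIG1. Of 17 light signalling genes 7 rose and 3 fell, or 11 and 2 on an equal sum of RPKM.

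Of 15 clock genes 9 rose and 4 fell. LHY and CCA1, which peak at dawn, were lower, with 63.3 and 78.3 RPKM in GFP against 16.8 and 17.2 in DIG1 for LHY (−2.02 ± 0.13) and 105 and 129.9 RPKM in GFP against 52.7 and 49.7 in DIG1 for CCA1 (−1.18 ± 0.13). Among those that rose were PRR7 with 22.2 and 23 RPKM in GFP against 99.9 and 100.2 in DIG1 (2.12 ± 0.08), ELF3 with 5.86 and 6.4 RPKM in GFP against 39 and 35.6 in DIG1 (2.51 ± 0.11) and TOC1 with 8.44 and 8.66 RPKM in GFP against 18.6 and 17.1 in DIG1 (1.02). The labels do not give the hour of harvest, and harvest time can bear on all clock genes. Of 4 measured flowering genes 1 rose and 3 fell, and 2 fell in each fit without GFP replicate 1, GFP replicate 2 or DIG1 replicate 2. FLC, a repressor of flowering, had 2.45 and 2.18 RPKM in GFP against 25 and 27 in DIG1 (3.23 ± 0.13, limma adjusted p = 0.000222). SVP, another repressor, had 49.8 and 40.1 RPKM in GFP against 0.903 and 2 in DIG1 (−4.59 ± 0.30), and SOC1, a promoter of flowering that both repress, had 12.8 and 16.2 RPKM in GFP against 1.37 and 1.27 in DIG1 (−3.03). The repressors thus had opposite signs.

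Genes of growth hormones changed in both directions, as did all genes of the table, of which 31.9% rose and 31.2% fell. Among 11 genes of auxin response 1 rose and 5 fell, and the number that fell was 3 without GFP replicate 2 and 8 without DIG1 replicate 1. IAA19, an auxin-induced repressor, was at 2.78 and 2.97 RPKM in GFP and listed at 0 in both DIG1 libraries, while IAA2 had 35.9 and 41.8 RPKM in GFP against 128 and 102 in DIG1 (1.54). The auxin importer LAX3 had 20.5 and 18.5 RPKM in GFP against 1.55 and 1.16 in DIG1 (−3.44), and the exporter PIN3 had 71 and 67.4 RPKM in GFP against 107 and 117 in DIG1 (0.69). All but 1 of 6 type-A response regulators, which cytokinin induces, fell, such as ARR6 with 10.3 and 11.4 RPKM in GFP against 2.75 and 1.94 in DIG1 (−2.01). Of 14 gibberellin genes 4 rose and 6 fell, with 2 lower without GFP replicate 1 and 3 without DIG1 replicate 2. Its receptor gene GID1A had 9.83 and 10.5 RPKM in GFP against 32.5 and 34.3 in DIG1 (1.67), and GA3OX1, which makes the active hormone, had 6.24 and 5.43 RPKM in GFP against 18.9 and 20.2 in DIG1 (1.66). GA3OX2, its relative, had 4.36 and 3.33 RPKM in GFP against 0.185 and 0 in DIG1 (−2.88). In the brassinosteroid list CPD, a synthesis enzyme that the hormone represses, had 83.2 and 79.9 RPKM in GFP against 301 and 311 in DIG1 (1.90 ± 0.09), and BES1, a factor that carries the response, had 92.7 and 99.9 RPKM in GFP against 19.5 and 16.8 in DIG1 (−2.38 ± 0.11). Of 10 ethylene genes 3 rose and 1 fell, none at least 2-fold. EIN3, the main factor of the response, had 40.7 and 45.5 RPKM in GFP against 78.7 and 70.6 in DIG1 (0.79).

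Epidermal markers were also mixed. Of 11 measured stomatal genes 3 rose and 3 fell, beside 31.9% and 31.2% of all genes. SPCH, which starts the stomatal lineage, had 5.85 and 5.97 RPKM in GFP against 15.8 and 17 in DIG1 (limma adjusted p = 0.000615), and KAT1, a potassium channel of guard cells, had 10.3 and 8.42 RPKM in GFP against 2.81 and 2.17 in DIG1 (−1.73 ± 0.18). GL2, a factor of trichomes and of hairless root cells, had 5.43 and 5.25 RPKM in GFP against 0.899 and 0.468 in DIG1 (−2.33). None of the 12 seed maturation genes was in the table.

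**Figure D5:**
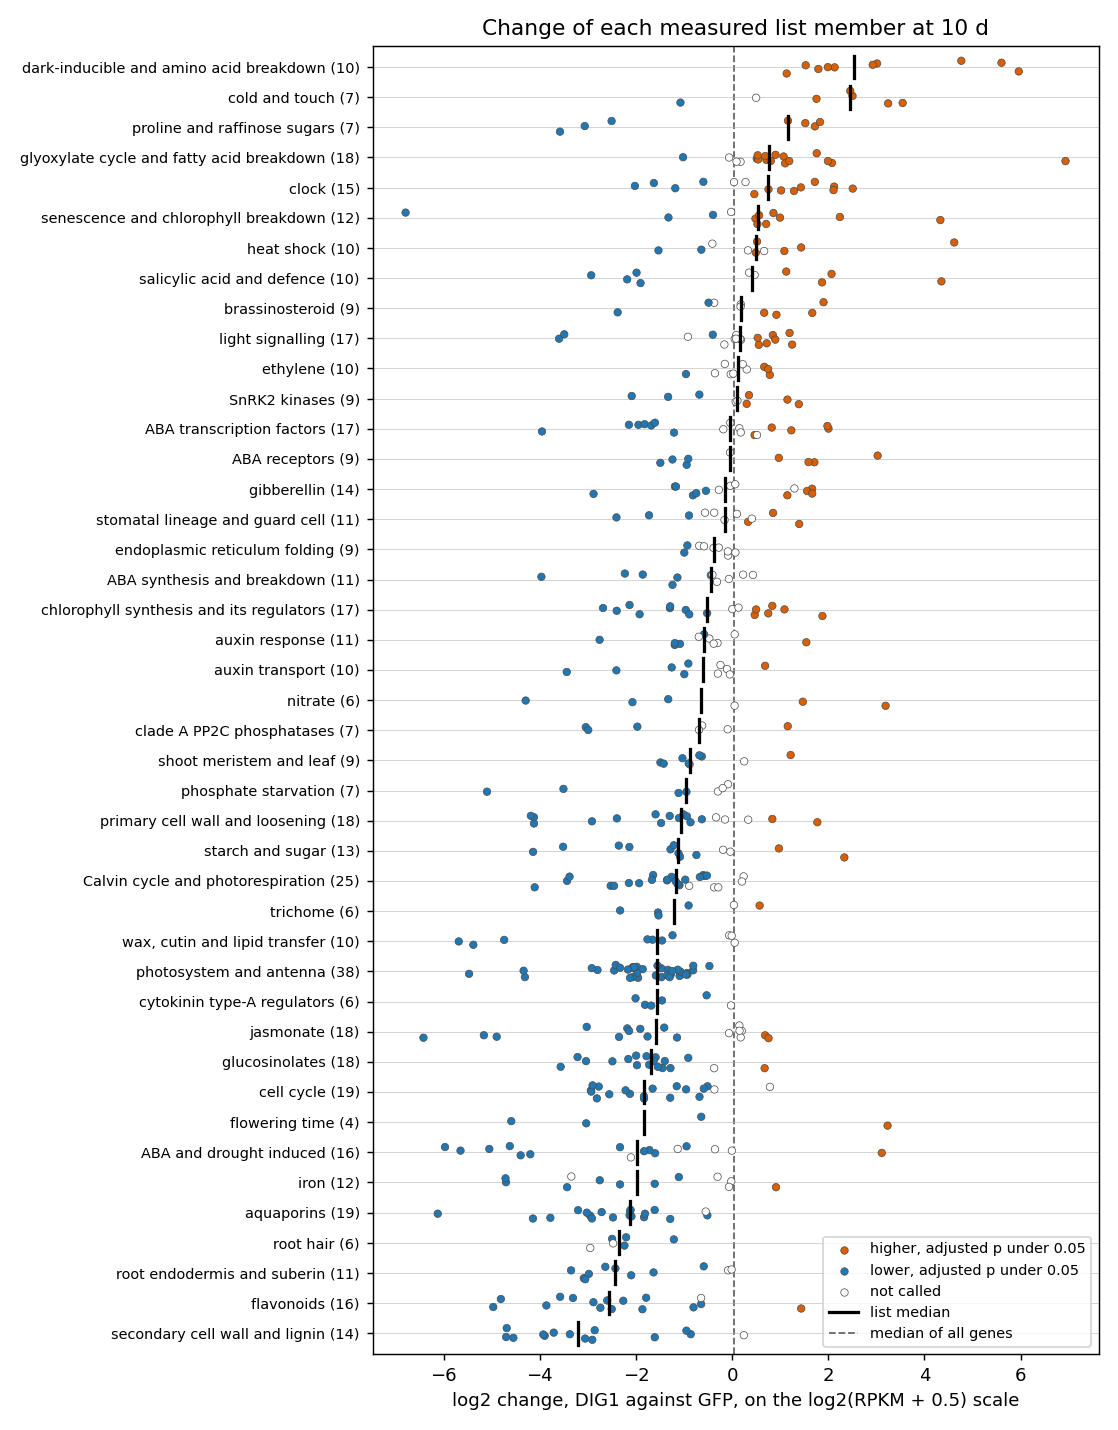
Log2 change of DIG1 against GFP (x axis) of each measured member of the pathway and marker lists with 4 or more measured genes (y axis, number measured in brackets). Orange and blue points passed the test upward and downward, white points did not, black bars are list medians and the dashed line is the median of all genes at 0.05. Among these lists the dark-inducible list has the highest median (2.53) and the secondary wall list the lowest (−3.21).

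Some abundant transcripts rose, and in RPKM GRP3S and TCTP rose by more than DIG1 did. GRP3S, a glycine-rich protein, had 564 and 1179 RPKM in GFP against 4348 and 5519 in DIG1 (2.59), and TCTP, the translationally controlled tumor protein, had 879 and 1119 RPKM in GFP against 3282 and 3936 in DIG1 (1.86). UBQ3, a polyubiquitin gene, had 167 and 197 RPKM in GFP against 1246 and 1134 in DIG1 (2.71). These transcripts were higher in both DIG1 libraries. Among the 100 genes with the highest mean level 13 rose and 73 fell, and those 100 took 32.1% and 30.5% of the summed RPKM in GFP and 17.5% and 18.4% in DIG1. Among the 292 genes whose product text names a ribosomal protein, without those whose text names plastids or mitochondria, 77 rose and 23 fell, with a median of 0.09. On an equal sum of RPKM 159 rose and 8 fell. The number that rose was 34 without GFP replicate 2 and 46 without GFP replicate 1 or DIG1 replicate 2. The number that fell was 7 without GFP replicate 1, 14 without GFP replicate 2, 13 without DIG1 replicate 1 and 41 without DIG1 replicate 2.

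The remaining genes with the largest fold changes belong to no single list. GSTF3, a glutathione transferase, had 0 and 0.472 RPKM in GFP against 38.3 and 38.2 in DIG1 (5.80). MPL1, a lipase of aphid resistance, had 1.07 and 1.14 RPKM in GFP against 75.7 and 59.5 in DIG1 (5.40), and BT2, a protein that responds to nitrate and sugar, had 11.5 and 9.59 RPKM in GFP against 251 and 303 in DIG1 (4.65). TPX2, a thioredoxin-dependent peroxidase, CYP81D11, a cytochrome P450, SUFE2, DTX1 and MEE14 rose by 4.26 to 4.79. DR4, a drought-repressed gene, had 232 and 124 RPKM in GFP against 4.01 and 0.39 in DIG1 (−6.41). PPT2, a phosphoenolpyruvate transporter of the plastid, had 41.5 and 36.2 RPKM in GFP against 0.0898 and 0.411 in DIG1 (−5.74). PELPK1, a cell wall protein, fell as well (−5.53). Both libraries of one line lay above both of the other in each, which the rule for choosing them required.

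The 10 d result can be set beside that of dark-grown DIG1 seedlings given 10 µM dexamethasone for 4 h, though age, light, dose and time all differ and the tables were normalized separately. At 4 h 522 genes (3.01%) were higher and 962 (5.54%) lower. Of the 16393 genes in both tables, 1326 were called at 4 h and 10172 at 10 d. The same direction was called in 924 of them, 69.7% of the genes called at 4 h and 9.08% of those called at 10 d, and opposite directions in 138. For comparison, 31.9% of all genes of the 10 d table rose and 31.2% fell. DIG1 itself rose by 10.11 ± 0.16 at 10 d and by 10.11 ± 0.23 at 4 h. LHCB2.3 fell at both, by 2.45 on the log2 scale at 4 h, and ABF3 fell at 4 h too. ICL, ASN1 and BT2 were not called at 4 h, with limma adjusted p = 0.819, 0.812 and 0.952. In the dark-grown GFP libraries they stood at 716 and 1037 RPKM (ICL), 348 and 382 (ASN1) and 237 and 235 (BT2). These GFP levels were far above those of the light-grown GFP libraries. No test of the difference between the experiments was made.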

How the data were processed

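The deposited table for the light-grown seedlings holds RPKM values per gene and library, with the authors' log2 fold change and FDR-adjusted p-value, per the file headers. RNA was extracted from whole seedlings and libraries were made with a stranded kit for polyA RNA, per the labels' protocols. HTSeq 0.5.4, edgeR 3.6.2 and the TAIR10 build are named, per the submitters' processing notes. The aligner is not given in the sources used here. Growth text and treatment label give the dexamethasone concentration in different units, and that of the treatment label is printed. The table lists genes that passed the authors' own filter on low values, so a gene not in it was not analysed here. All 4 libraries were used, and 0 columns of per-sample values were left out.

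A linear model with an empirical Bayes variance trend (limma 3.58.1 in R 4.3.3) was fitted to log2(RPKM + 0.5) of all 17433 genes, with Benjamini-Hochberg adjustment and a threshold of 0.05. The RPKM table of the 4 h experiment was fitted on its own with all its 6 libraries. On simulated data with 5 sets of 200 changed genes, the fit called 35.8% of 2-fold and 90.2% of 4-fold changes, and 3.65% of its calls were false. Far fewer genes were changed there than the 63.1% called in the data, so these rates may not hold for this comparison. The RPKM values of every gene were whole multiples of the value of 1 read (within 0.001 read), so read depth could be recovered. Alternatives were other pseudocounts (0.1 and 1), a minimum mean of 1 RPKM, no variance trend, other scalings, a replicate block, voom on the recovered reads and leaving out each library. Printed promoters are 250 bases upstream of the gene start in TAIR10.1 from RefSeq, whose gene table also gave names and products. The windows in which motifs were counted also took in a short stretch after the start.

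Genes were named by a rule. Among called genes that have a symbol, no overlap between lines and 1 RPKM or more on average, it takes the 15 largest rises and falls by fold and the 10 by RPKM. In each list it takes up to 4 called members with the largest changes each way, and members not called where a count is discussed. A further 41 genes were named after their values were seen: ABF1, ATG13, ATG2, CAB3, CDKB2;1, CESA1, CESA4, COR47, DOX1, ETFQO, GDH1, GDH2, GLK1, GSTF12, GSTU11, HCT, JAZ1, LHCA2, LHCA4, LHCB4.1, LHCB4.2, MCCA, MCM2, MYB28, PCNA1, PETC, PIP2;1, PRH75, PSAG, PSAL, PSBP-1, PSBR, RAB18, SBPASE, SDP1, STRS2, TOC1, AT1G08610, AT3G53980, AT5G51890 and ATCG00040. The gene lists and the comparison were chosen with earlier results of these data known.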

Additional observations from a re-analysis of the deposited data

Results flagged for a closer look

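Among the genes named by the rule, 7 were called at both ages with opposite signs, and in each the libraries of the lines did not overlap in either experiment. The difference between the experiments was not tested, since the tables were normalized separately and age, light, dose and time of treatment all differ. NIA1, a nitrate reductase gene, rose by 3.19 on the log2 scale at 10 d and had 157 and 205 RPKM in GFP against 82.5 and 88.3 in DIG1 at 4 h (−1.07 ± 0.13). NIA2 rose by 1.47 at 10 d and had 175 and 238 RPKM in GFP against 88.8 and 100.5 in DIG1 at 4 h (−1.11 ± 0.15). NRT2.1, a high-affinity nitrate importer, had 2.31 and 1.28 RPKM in GFP against 0.0352 and 0.0293 in DIG1 at 10 d (−2.07) and 2.52 and 3.32 RPKM in GFP against 7.34 and 8.69 in DIG1 at 4 h (1.32 ± 0.32).

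PHYA rose by 1.25 at 10 d and had 341 and 369 RPKM in GFP against 234 and 249.7 in DIG1 at 4 h (−0.55 ± 0.13). GNC, a GATA factor of chloroplast development, had 18.7 and 18.1 RPKM in GFP against 31 and 35.7 in DIG1 at 10 d (0.84) and a log2 change of −0.96 ± 0.15 at 4 h. RVE8, a clock factor, had 45.3 and 56 RPKM in GFP against 34.1 and 32.2 in DIG1 at 10 d (−0.60) and a log2 change of 0.54 ± 0.11 at 4 h, and its call at 10 d was lost on an equal sum of RPKM (−0.29, limma adjusted p = 0.126). GH3.6, which conjugates auxin, had 22.8 and 23.4 RPKM in GFP against 13.4 and 7.18 in DIG1 at 10 d (−1.19) and a log2 change of 0.59 ± 0.10 at 4 h. Its call at 10 d was lost without GFP replicate 1 (limma adjusted p = 0.077) or GFP replicate 2 (0.081).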

How the results depend on the processing

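The DIG1 transcript kept its direction and call under every alternative run. Scaling to an equal sum of RPKM, chosen after seeing the data, gave 3155 genes at least 2-fold higher in place of 1757, and the share of higher genes among all called moved from 50.55% to 66.6%. The other counts of genes higher and lower, in all and at least 2-fold, stayed within 1.5 times. With a library left out, 3862 to 4592 genes were higher and 4227 to 4917 lower, and 1696 to 1902 and 3091 to 3348 at least 2-fold so. The lone library of a line was then assumed to vary like those of the other line. Of 303 named genes, 254 kept direction and call under every alternative run, and 42 lost the call without at least 1 library. Under quantile normalization SLAC1 (0.054), PETC (0.25), LHCB4.1 (0.39), PSBR (0.29), LHCA4 (0.13), LHCB4.2 (0.090), CAB3 (0.086), LHCA2 (0.079), PSAG (0.029) and PSAL (0.025) changed sign, and the cause was not tested. The same-numbered libraries' deviations correlated at 0.04 over 2 pairs, so the numbers were not taken to pair them. A replicate block gave 5231 genes higher and 5297 lower. Voom on the recovered reads gave 5670 and 5505. The edgeR and DESeq2 alternatives were not run, as the deposited unit is RPKM. With 2 libraries per line, a gene not called may still differ. Most 2-fold changes in the simulated data were missed, but far fewer genes were changed there than were called here. The share missed in this comparison is thus not known.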

Other observations

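Several families of RNA-handling proteins, picked by words in their annotated product after the values were seen, had more members that rose than fell. Of 207 pentatricopeptide repeat proteins, which mostly process organelle transcripts, 124 rose and 3 fell, with a median of 0.62. The number that rose was 68 without GFP replicate 2 and 71 without DIG1 replicate 2. AT1G08610 had 2.95 and 2.21 RPKM in GFP against 13.8 and 17 in DIG1 (2.37). Of 58 genes whose product text names an RNA helicase 40 rose and 6 fell. Those words also covered genes annotated as DNA/RNA helicases, such as RAD5. Fewer rose without GFP replicate 1, GFP replicate 2 or DIG1 replicate 2, and fewer fell in each fit without 1 library. PRH75, a nuclear helicase, had 62.1 and 55.1 RPKM in GFP against 215 and 233 in DIG1 (1.93 ± 0.10), and STRS2, which restrains stress responses, had 10.4 and 9.95 RPKM in GFP against 30.3 and 34.2 in DIG1 (1.62). Both were higher in each DIG1 library than in either GFP library.

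The next families were picked the same way. Of 17 genes annotated as autophagy proteins 10 rose and 3 fell, and without GFP replicate 1 the counts were 5 and 1. ATG2, which acts in forming the autophagosome, had 5.22 and 5.9 RPKM in GFP against 11.2 and 11.8 in DIG1 (0.99), while ATG13, part of the kinase complex that starts the process, had 12.9 and 12.8 RPKM in GFP against 4.78 and 4 in DIG1 (−1.45). Glutathione S-transferases were divided, with 18 of 40 higher and 16 lower, beside 31.9% and 31.2% of all genes. GSTU11 had 0.0804 and 0 RPKM in GFP against 3.64 and 2.18 in DIG1 (2.63). GSTF12, needed to store anthocyanins in the vacuole, had 40.8 and 31.9 RPKM in GFP against 2.15 and 0.86 in DIG1 (−4.27 ± 0.34).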
